A study of Homo sapiens with 6 samples.

Results

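The genes described here are 47 that build and run the cilium: subunits of intraflagellar transport (IFT), the BBSome, the transition zone, the basal body and ciliary signalling. They were chosen by symbol for their known function, by a rule that uses no measured value but was drawn up with earlier results of these data known, and all 47 matched a row of the deposited table of 61806 genes. The data are 6 RNA-seq libraries of 293T, an established human embryonic kidney line, which the labels list as kidney and epithelial. In 3 libraries the cells carried a GFP plasmid and in 3 a plasmid labelled GFP-812, each delivered with the lipid reagent Lipo2000. GFP is green fluorescent protein, so both groups share the transfection and the GFP label. The labels do not explain the number in the second name, but the series title names truncated NEK1, a kinase with a known role at the cilium, and the comparison asks whether the cilium genes differ in RNA level between the plasmids. The labels name no separate clones or cultures for the replicates, so the spread behind each p-value is that among these libraries and may be technical.

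The primary cilium is a single antenna-like projection built on a centriole, the basal body. Kinesin-2 carries IFT-B trains to its tip, dynein-2 and IFT-A bring them back, and the BBSome ferries membrane proteins along them. The transition zone, made of MKS and NPHP protein modules, is the gate at its base. Mutations in these genes cause ciliopathies such as Bardet-Biedl, Joubert and Meckel syndromes and nephronophthisis, in which cystic kidneys are common. Many cilium genes carry an X-box in the promoter, the site bound by RFX transcription factors.

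Total counts per library ran from 14255148 to 17613814. NEK1 stood at 562.73, 518.33 and 493.72 FPKM (counts scaled by exon length and library total) in GFP-812 replicates 1, 2 and 3, and at 3.82, 3.99 and 3.91 FPKM in GFP replicates 1, 2 and 3. Correlations of log2 counts, scaled to library size, between libraries lay between 0.9873 and 0.9913, over genes that are not independent. GFP replicate 3 correlated with GFP-812 replicate 3 at 0.9903 and with GFP replicates 1 and 2 at 0.9897 and 0.9899. The libraries thus did not separate cleanly by group, and values without GFP replicate 3 are given for some of the results. Among 12 kidney and 293T markers, PAX8 was near 0 (0.00 to 0.04 FPKM). The epithelial adhesion genes CDH1 and EPCAM were low (0.53 to 1.19 FPKM), while the epithelial keratins KRT8 (8.95 to 10.82 FPKM) and KRT18 (14.53 to 16.44 FPKM) were well expressed. The 12 summed to 145.2 to 158.5 FPKM in GFP-812 and 130.4 to 140.6 in GFP, with 2 of 11 tested (the neurofilament genes NEFM and NEFL) risen, beside 1.18% of all genes. Markers of blood summed to at most 0.44 FPKM and those of endothelium to at most 0.04, and the 6 fibroblast markers summed to 2.73 to 3.36 FPKM in GFP-812 and 2.35 to 2.90 in GFP. In bulk RNA, fewer cells of a type and less RNA per cell cannot be told apart.

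Of the 47 genes, 1 fell in GFP-812 (AHI1), 0 rose and 46 did not pass an adjusted p of 0.05 by edgeR's quasi-likelihood test with Benjamini-Hochberg adjustment over 16834 genes. Over all tested genes 3.84% were called, 2.67% as fallen and 1.18% as risen. All 47 passed the filter on low counts. Their median log2 fold change (GFP-812 minus GFP throughout) was 0.0091, against 0.0069 over all tested genes. Above 0 were 26 members and below 0 were 21, beside 8728 and 8106 of all tested genes. The members' summed level was 262.0, 261.0 and 265.9 FPKM in GFP-812 and 263.7, 264.8 and 261.2 FPKM in GFP. These sums overlap, and their means differed by less than the SD of either group (263.0 ± 2.56 against 263.2 ± 1.83 FPKM, SD, n = 3 each).

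The limits on single genes were narrow for most. The 95% interval of the fold change stayed within 1.2-fold in either direction for 30 members (63.8%, against 39.7% of all tested genes) and within 1.5-fold for 45 (95.7% against 70.1%). The exceptions to the wider limit were BBS1 and B9D2, the members with the lowest levels. At an unadjusted p under 0.05 there were 6 members, against 16.1% of all tested genes. Above 0 were TMEM231, ARL3 and IFT122 (7.24% of all genes), and below 0 were AHI1, TTBK2 and RPGRIP1L (8.9% of all genes). The 3 libraries of one group all lay on one side of the other group's for 10 members, 6 lower and 4 higher in GFP-812. Over all tested genes this held for 20.5% (10.8% lower, 9.75% higher), so the share among the members was near the background. Overlap is judged on counts scaled by library size (TMM), which can order libraries differently from FPKM where values are close.

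**Figure D1:**
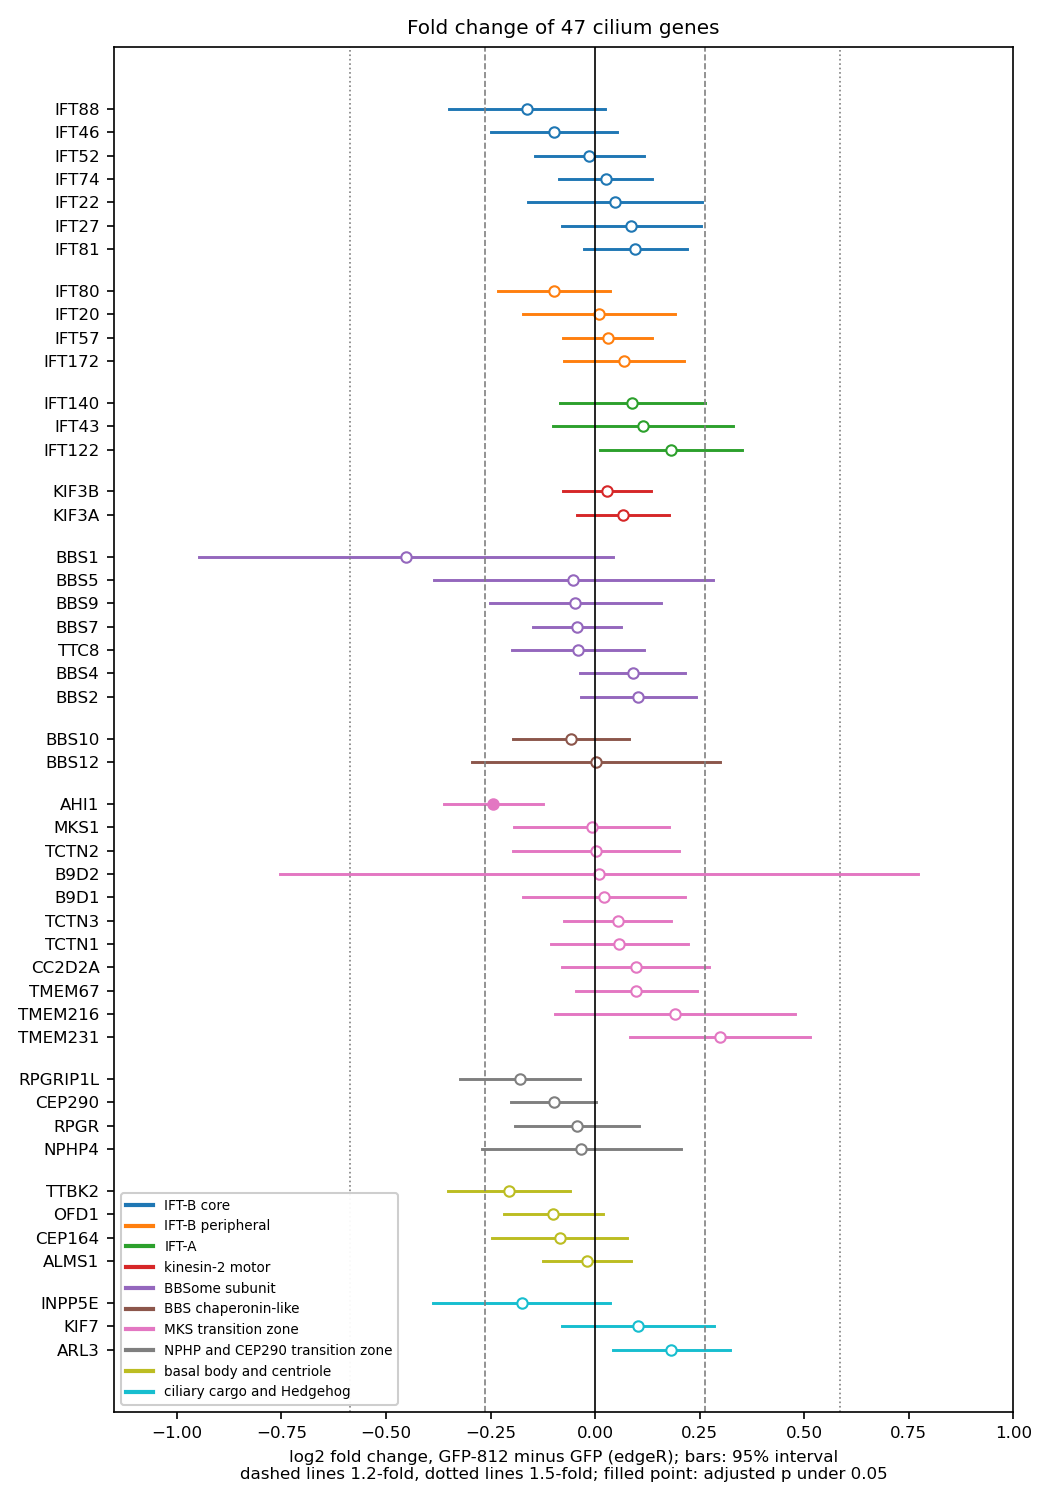
Log2 fold change of each of the 47 genes, GFP-812 minus GFP, by role in the cilium, with 95% intervals from edgeR; the vertical lines mark 0 and the fold limits named in the plot. The points run from -0.45 (BBS1) to 0.30 (TMEM231), and AHI1 alone passed the adjusted threshold.

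Without each library in turn, 0 to 2 members were called. The call of AHI1 was lost on leaving out GFP-812 replicate 1 (adjusted p = 0.0519 by edgeR), GFP-812 replicate 2 (0.0776) or GFP replicate 2 (0.0569), where 2.76%, 1.21% and 2.39% of all genes were called. Without GFP replicate 3, AHI1 and TTBK2 were called, against 7.63% of all genes.

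The cilium machinery was transcribed in these cells at low to moderate levels. Mean FPKM over the 6 libraries ran from 0.4483 (BBS1) to 27.91 (IFT57), with a median of 3.45, close to that of all tested genes (3.42). Above 10 FPKM stood 8 genes: IFT57 (27.91), IFT52 (18.62), BBS7 (17.47), KIF3B (14.72), BBS4 (13.06), KIF3A (11.15), BBS10 (10.92) and ARL3 (10.79). Under 1 FPKM stood BBS1, B9D2 (0.77) and NPHP4 (0.9417). Subunits of one complex therefore differed widely: within the BBSome, BBS7 was the highest and BBS1 the lowest. FPKM uses the table's exonic size, which exceeded 1.5 times the GENCODE 29 size for 13 members. The same counts thus give lower levels for such genes than the shorter sizes would. The fold changes do not use this size, but whether the counts behind them would differ with the shorter models was not checked.

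**Figure D2:**
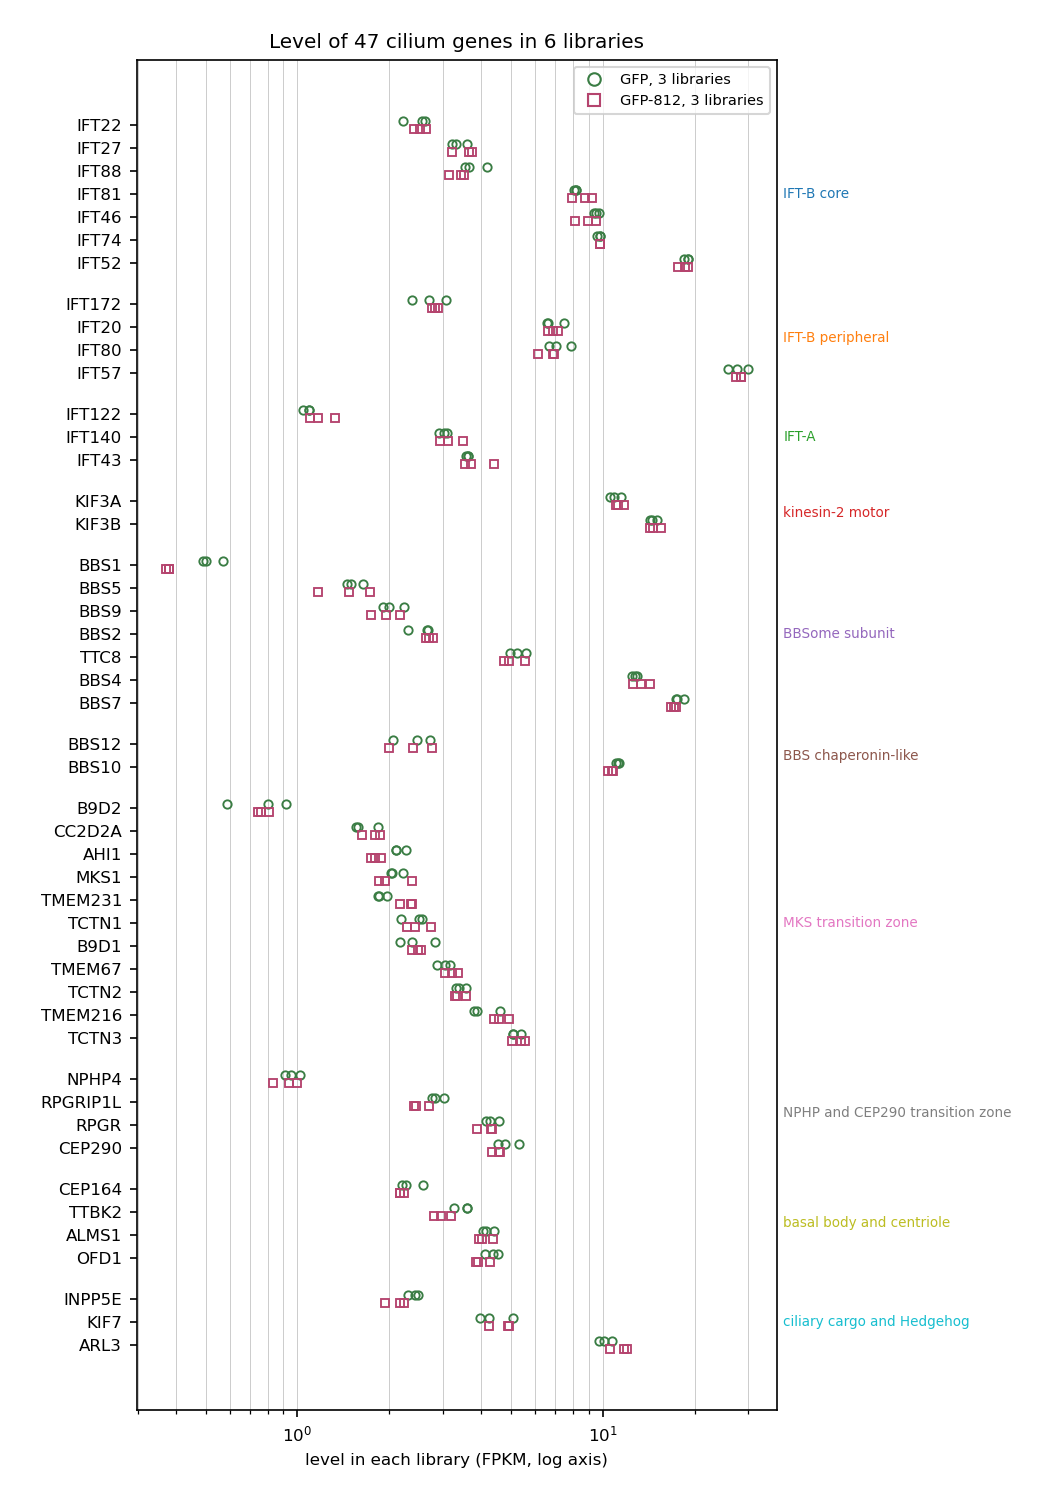
FPKM on a log axis of the 47 genes in each of the 6 libraries, grouped by role. The symbols of both groups lie on top of each other for most genes, from BBS1 at about 0.4 to IFT57 near 28 FPKM.

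IFT-B is the larger train complex, which moves cargo from base to tip. None of its 7 core and 4 peripheral subunits passed the test. The core genes had a median log2 fold change of 0.025, with 4 above 0 and 3 below, and summed to 55.16 ± 0.631 FPKM in GFP-812 and 55.83 ± 0.722 in GFP (SD, n = 3). Without GFP replicate 2 the core median was -0.028. IFT88, the subunit lost in a classic mouse model of polycystic kidney disease, stood at 3.43, 3.50 and 3.13 FPKM in GFP-812 and 4.17, 3.64 and 3.54 in GFP. Its GFP-812 values were the lower ones by FPKM, yet its scaled counts overlapped, and the difference of -0.16 (SE 0.0934) did not pass (adjusted p = 0.394 by edgeR). IFT81, which binds tubulin together with IFT74, stood at 9.22, 7.94 and 8.75 FPKM in GFP-812 and 8.20, 8.19 and 8.04 in GFP, so that GFP-812 held both the highest and the lowest library. IFT74 was the steadiest, at 9.83, 9.83 and 9.80 FPKM against 9.59, 9.82 and 9.80. IFT46, needed for complex stability, differed by -0.099 on the log2 scale (SE 0.0752), and IFT52, a core scaffold, by -0.014 (SE 0.0647). The Rab-like small GTPases IFT22 and IFT27 gave 0.047 (SE 0.104) and 0.087 (SE 0.0832).

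The peripheral IFT-B subunits link the train to kinesin and to the Golgi. They summed to 44.41 ± 0.572 FPKM in GFP-812 and 44.53 ± 1.67 in GFP, with a median log2 fold change of 0.020 that became -0.026 without GFP replicate 2. IFT57, which attaches near IFT20, was the most abundant of the 47, at 28.40, 28.44 and 27.41 FPKM in GFP-812 and 29.89, 25.74 and 27.59 in GFP. The GFP libraries enclosed all GFP-812 values, and its interval ran from -0.076 to 0.14 on the log2 scale. IFT80, mutated in Jeune thoracic dystrophy, stood at 6.14, 6.86 and 6.91 FPKM in GFP-812 and 6.66, 7.85 and 7.04 in GFP. IFT172, the largest subunit, stood at 2.75, 2.88 and 2.83 FPKM in GFP-812 and 2.37, 3.07 and 2.69 in GFP. Both overlapped, with adjusted p of 0.488 and 0.694 by edgeR. IFT20, the subunit also found at the Golgi, had a log2 fold change of 0.010 (SE 0.0907). Of exonic bases, 11.2% of IFT20 are shared with TMEM97 and 8.46% of IFT80 with SMC4, both on the other strand.

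IFT-A, the complex for return transport and for entry of membrane receptors, had 3 genes, all above 0 with a median of 0.11, and none passed. IFT122 stood at 1.17, 1.10 and 1.33 FPKM in GFP-812 and 1.04, 1.09 and 1.09 in GFP. The GFP-812 libraries were all higher, but by as little as 0.01 FPKM, and the difference of 0.18 (SE 0.0845) had an adjusted p of 0.265 by edgeR. IFT43 stood at 4.41, 3.70 and 3.53 FPKM in GFP-812 and 3.61, 3.62 and 3.57 in GFP, with 1 GFP-812 library well above the rest. IFT140 had a log2 fold change of 0.089 (SE 0.0863). The IFT-A genes stayed above 0 in all 21 alternatives, but without GFP-812 replicate 1 their median was 0.017.

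KIF3A and KIF3B form the motor pair of kinesin-2. KIF3A stood at 11.22, 11.07 and 11.78 FPKM in GFP-812 and 10.54, 11.44 and 10.87 in GFP, and KIF3B at 15.53, 14.60 and 14.28 FPKM and 14.55, 15.05 and 14.29. Both sets overlapped, with log2 fold changes of 0.066 (SE 0.0549) and 0.028 (SE 0.0524). Their 95% intervals lay within 1.2-fold.

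The BBSome is a coat complex for membrane cargo. Its 7 measured subunits gave a median of -0.044, with 2 above 0 and 5 below, and 0 passed. Without GFP replicate 2 the median was -0.0045. They summed to 42.09 ± 1.48 FPKM in GFP-812 and 42.44 ± 0.597 in GFP. BBS1, the gene most often mutated in Bardet-Biedl syndrome, stood at 0.37, 0.38 and 0.38 FPKM in GFP-812 and 0.57, 0.49 and 0.50 in GFP. All GFP-812 libraries were lower, and BBS1 had the lowest fold change of the 47, -0.45 (SE 0.247), with a wide interval of -0.95 to 0.044 and an adjusted p of 0.365 by edgeR. Of its exonic bases, 12.4% lie on the other strand of another counted gene, ZDHHC24, and whether the counting used strand is not given in the sources used here.

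Among the other BBSome genes, BBS2 stood at 2.64, 2.78 and 2.70 FPKM in GFP-812 and 2.65, 2.31 and 2.67 in GFP, higher in GFP-812 on scaled counts and touching by FPKM. BBS7, which forms a core subcomplex with BBS2 and BBS9, stood at 16.78, 17.16 and 17.44 FPKM in GFP-812 and 17.53, 18.52 and 17.40 in GFP. BBS7 thus differed by -0.044 (SE 0.0524), with an interval inside 1.2-fold. BBS4 differed by 0.090 on the log2 scale (SE 0.0624), BBS5 by -0.052 (SE 0.166), BBS9 by -0.047 (SE 0.102) and TTC8, also known as BBS8, by -0.041 (SE 0.0784).

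BBS10 and BBS12 encode chaperonin-like proteins that assemble the BBSome. BBS10 stood at 10.75, 10.43 and 10.77 FPKM in GFP-812 and 11.21, 11.27 and 11.08 in GFP. Its groups did not overlap, yet the difference was only -0.058 (SE 0.0695 and adjusted p = 0.741 by edgeR). BBS12 stood at 2.39, 2.00 and 2.76 FPKM in GFP-812 and 2.71, 2.46 and 2.05 in GFP. Its libraries mixed fully, and its log2 fold change of 0.0027 (SE 0.148) took either sign with the processing.

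The MKS module of the transition zone holds membrane proteins and the tectonic and B9 proteins that keep the gate. Of 11 genes, 9 were above 0 and 2 below, with a median of 0.054. Without GFP-812 replicate 3 the split was 6 and 5, with a median of 0.019. The summed level was 30.20 ± 1.09 FPKM in GFP-812 and 29.15 ± 0.705 in GFP. Of the 11, 1 fell and 0 rose.

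AHI1 (ENSG00000135541, hg38 chr6:135283407-135498434, minus strand) encodes jouberin, mutated in Joubert syndrome. It stood at 1.74, 1.79 and 1.88 FPKM in GFP-812 replicates 1, 2 and 3 and at 2.11, 2.26 and 2.10 in GFP replicates 1, 2 and 3. Every GFP-812 library was lower than every GFP library, and the gap exceeded the spread within either group. The means were 1.803 ± 0.0709 and 2.157 ± 0.0896 FPKM (SD, n = 3), and the log2 fold change was -0.24 (SE 0.0589, interval -0.36 to -0.13, adjusted p = 0.00802 by edgeR). AHI1 thus fell by 15.5%. The counts behind it were 783, 885 and 1046 in GFP-812 and 1074, 1148 and 1068 in GFP. In GENCODE 29 no exonic base of AHI1 is shared with another counted gene, but that model has 8705 exonic bases against 31596 in the table, and the rest was not checked. The log2 fold change by limma on log2(FPKM + 1) was -0.17, with an adjusted p of 0.282, in a fit that called 3 genes in all.

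**Figure D3:**
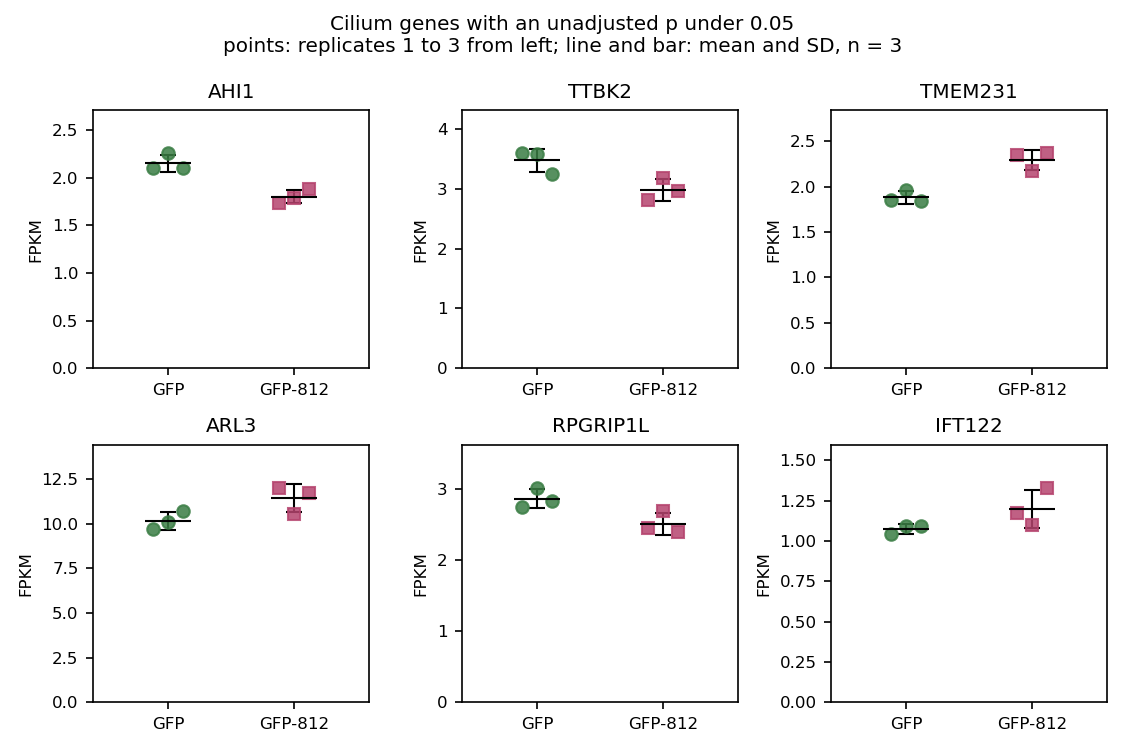
FPKM of selected members by library, from 0, with the mean and SD of 3 libraries per group. AHI1 is lower in all 3 GFP-812 libraries (1.74 to 1.88 against 2.10 to 2.26 FPKM), and the differences of the other genes drawn did not pass the test.

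TMEM231, a membrane protein of the MKS module, had the highest fold change of the 47. It stood at 2.35, 2.17 and 2.37 FPKM in GFP-812 and 1.85, 1.97 and 1.84 in GFP. All GFP-812 libraries were higher, by 0.30 on the log2 scale (SE 0.107), and the adjusted p was 0.113 by edgeR. B9D2, a B9 protein at low level, stood at 0.76, 0.74 and 0.81 FPKM in GFP-812 and 0.59, 0.92 and 0.80 in GFP. Its interval of -0.75 to 0.77 shows that a moderate change was not detectable at this depth. TMEM216 and TMEM67, other membrane proteins of the gate, had log2 fold changes of 0.19 (SE 0.143) and 0.099 (SE 0.0726). The tectonics TCTN1, TCTN2 and TCTN3 gave 0.058, 0.0017 and 0.054, and CC2D2A, B9D1 and MKS1, scaffold proteins of the module, gave 0.097, 0.021 and -0.0079. The groups of these 8 genes overlapped.

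The promoters are shown because the X-box is the element that cilium genes share most often. RefSeq windows of 250 bases before the start site (build GRCh38.p14) matched 43 of the 47 genes, those of IFT22, BBS9, TMEM67 and TCTN2 not being matched. The half-site GTTGCC, searched on both strands, occurred in 13 of 43 members (30.2%), against 14.2% of the 11659 tested genes with a window and 12.3% of all 27305. It occurs in the windows of IFT27, IFT46, IFT74, IFT122, BBS5, TTC8, BBS10, TMEM231, TCTN3, B9D2, MKS1, OFD1 and ALMS1, members of 6 roles. The palindromic form of the X-box, the half-site followed after any 2 letters by its reverse complement GGCAAC, occurred in 0 members and 0.129% of tested genes. With up to 1 mismatch in its 12 paired letters it occurred in 0 members and 1.14% of tested genes. With up to 2 mismatches, a limit set after the windows were seen, it occurred in TMEM231, B9D1, MKS1 and AHI1 (4 of 43, 9.3%), against 3.86% of tested genes and 3.1% of all. A match is a run of letters and not a measured site. The first line gives the 250 bases before the RefSeq start of AHI1, the member that fell, with the mismatched palindrome in capitals, beginning 68 bases before a start that lies 694 bases inside the gene end of the table. The other lines give 60-base stretches around the half-site or its reverse complement GGCAAC, in capitals, for members with values on both sides of 0. All are read 5′ to 3′ along the gene's strand.
AHI1, chr6:135497741-135497990, minus strand: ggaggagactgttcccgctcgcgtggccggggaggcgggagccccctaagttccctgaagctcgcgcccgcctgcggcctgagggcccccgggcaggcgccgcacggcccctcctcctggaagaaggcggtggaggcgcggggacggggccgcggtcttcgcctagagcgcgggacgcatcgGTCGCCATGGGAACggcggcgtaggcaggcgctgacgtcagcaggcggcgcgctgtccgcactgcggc
TMEM231, chr16:75556260-75556319, minus strand: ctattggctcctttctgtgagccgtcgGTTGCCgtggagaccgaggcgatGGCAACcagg
BBS10, chr12:76348604-76348663, minus strand: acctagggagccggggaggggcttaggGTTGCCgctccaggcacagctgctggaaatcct
B9D2, chr19:41364150-41364209, minus strand: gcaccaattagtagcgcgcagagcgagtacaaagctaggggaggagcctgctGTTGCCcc
OFD1, chrX:13734648-13734707, plus strand: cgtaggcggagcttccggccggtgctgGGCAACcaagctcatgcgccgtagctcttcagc
The TMEM231 window holds the half-site on both strands. The 13 genes with a half-site do not include AHI1. With 1 of the 47 members called, this cannot tell whether genes with the half-site differ from the others.

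The NPHP module and CEP290 form the inner part of the gate. All 4 genes were below 0, with a median of -0.071, and 0 passed. Without GFP-812 replicate 1, 2 of the 4 were below 0, with a median of -0.038. Their summed level was 12.11 ± 0.573 FPKM in GFP-812 and 13.04 ± 0.49 in GFP. RPGRIP1L, a scaffold between the MKS and NPHP modules, stood at 2.45, 2.69 and 2.40 FPKM in GFP-812 and 2.75, 3.02 and 2.83 in GFP. All GFP-812 libraries were lower, at a difference of -0.18 on the log2 scale (SE 0.072) and an adjusted p of 0.167 by edgeR. CEP290, which tethers membrane to microtubules, stood at 4.33, 4.62 and 4.57 FPKM in GFP-812 and 4.77, 5.32 and 4.54 in GFP. Its libraries overlapped through GFP replicate 3, at a log2 fold change of -0.099 (SE 0.0509, adjusted p = 0.331 by edgeR). NPHP4, an inner-gate scaffold, stood at 0.83, 0.94 and 1.00 FPKM in GFP-812 and 0.91, 0.95 and 1.02 in GFP, and RPGR, a binding partner of RPGRIP1L, differed by -0.043 on the log2 scale (SE 0.0741).

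The 4 basal body genes were also all below 0, with a median of -0.092 and 0 passed. Without GFP replicate 2, 3 were below 0, with a median of -0.058, and without GFP replicate 3 the median was -0.133. They summed to 13.29 ± 0.483 FPKM in GFP-812 and 14.37 ± 0.663 in GFP. TTBK2, the kinase that removes CP110 from the mother centriole to start cilium growth, stood at 2.81, 3.18 and 2.96 FPKM in GFP-812 and 3.60, 3.58 and 3.26 in GFP. All GFP-812 libraries were lower, GFP replicate 3 being the nearest, and the difference was -0.21 (SE 0.0728, adjusted p = 0.104 by edgeR). Without GFP replicate 3 it was -0.25, with an adjusted p of 0.0315. OFD1, a centriolar satellite protein, stood at 3.91, 3.85 and 4.26 FPKM in GFP-812 and 4.53, 4.36 and 4.12 in GFP, which overlapped (-0.10, SE 0.0592). CEP164, the distal appendage protein that recruits TTBK2, and ALMS1, mutated in Alström syndrome, had log2 fold changes of -0.084 (SE 0.0807) and -0.020 (SE 0.0525).

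These 8 genes were set together only after their values were seen, so no test was made of them. Their median was -0.091. Leaving out GFP-812 replicate 1 left 6 of the 8 below 0. The count was 7 when GFP-812 replicate 2 was dropped (median -0.072) and also on dropping GFP replicate 2 (-0.051) or GFP replicate 3 (-0.13). Across the 47 members, log2 fold change and log exonic size correlated at r = -0.162 (rho = -0.102), and log2 fold change and GC content at r = 0.166 (rho = 0.29), a description over genes measured in the same libraries.

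The remaining 3 genes act in cargo release and signalling. ARL3, the GTPase that unloads lipidated proteins inside the cilium, stood at 12.02, 10.54 and 11.73 FPKM in GFP-812 and 9.69, 10.10 and 10.69 in GFP. Only GFP-812 replicate 2 and GFP replicate 3 crossed, and the difference was 0.18 (SE 0.0701, adjusted p = 0.145 by edgeR). INPP5E, the phosphatase that sets ciliary membrane lipids and is delivered by ARL3, stood at 1.93, 2.24 and 2.16 FPKM in GFP-812 and 2.48, 2.43 and 2.31 in GFP. All GFP-812 libraries were lower, at a difference of -0.18 (SE 0.106, adjusted p = 0.425 by edgeR). KIF7, the kinesin that organises GLI proteins at the tip, differed by 0.10 on the log2 scale (SE 0.0907), and 11.8% of its exonic bases are shared with TICRR on the other strand.

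A list of 75 other cilium genes gives the setting. Of the 74 tested (EVC2 had 0 FPKM in all 6 libraries), 5 fell, 0 rose and 69 did not pass, beside 2.67% fallen over all genes. Their median log2 fold change was -0.038, with 25 above 0 and 49 below, beside 8728 and 8106 of all tested genes. Leaving out GFP-812 replicate 2 gave a median of -0.0205 with 30 above 0, dropping GFP replicate 2 gave -0.0226 with 29, and upper-quartile scaling gave -0.0232 with 30. The groups did not overlap for 16 in the lower and 2 in the higher direction, beside 10.8% and 9.75% of all genes. They summed to 462.3 ± 6 FPKM in GFP-812 and 482.8 ± 4.44 in GFP. None of the 9 other IFT subunits, the 7 genes for dynein-2 and other kinesin-2 subunits, the 4 other BBSome genes or the 5 RFX factors passed.

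The 5 that fell act at the centriole or centrosome, but the list holds many such genes. Of its 17 distal appendage and ciliogenesis genes, 2 fell and 15 did not pass, beside 2.67% fallen over all genes. Of its 6 NEK1 partner and disassembly genes, 2 fell (AURKA and KIF24) and 4 did not pass. The NEK1 partner among them, CFAP410, named after its values were seen, did not pass (-0.13, SE 0.207, adjusted p = 0.814 by edgeR). Of its 11 transition zone and inversin genes, 1 fell and 10 did not pass. KIF24, a kinesin that holds CP110 on the mother centriole and trims its microtubules, stood at 4.30, 4.52 and 4.71 FPKM in GFP-812 and 6.21, 5.97 and 5.34 in GFP. It fell by 0.36 on the log2 scale (SE 0.0769, adjusted p = 0.00208 by edgeR). CCP110, the gene of CP110 itself, a cap that keeps centrioles from growing cilia, stood at 9.96, 8.77 and 9.51 FPKM in GFP-812 and 10.73, 10.45 and 10.77 in GFP and fell by 0.17 (SE 0.0499, adjusted p = 0.0453). Its call was lost in 9 of 21 alternatives, among them DESeq2 (adjusted p = 0.0511), upper-quartile scaling (0.0756) and leaving out GFP-812 replicate 2 (0.404). In KIF24 and CCP110 every GFP-812 library was below every GFP library. AURKA, the mitotic kinase that drives cilium disassembly, stood at 34.21, 33.61 and 32.87 FPKM in GFP-812 and 41.29, 37.87 and 37.17 in GFP. AURKA fell by 0.20 (SE 0.0508, adjusted p = 0.0147 by edgeR). Its call was lost in 5 alternatives, among them leaving out GFP replicate 1 (adjusted p = 0.227 by edgeR).

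PCM1, the scaffold of centriolar satellites, stood at 10.17, 9.60 and 10.14 FPKM in GFP-812 and 11.31, 11.35 and 10.98 in GFP, and fell by 0.16 (SE 0.045, adjusted p = 0.0327 by edgeR). Its call was lost in 9 alternatives, among them upper-quartile scaling (0.0596) and leaving out any 1 library other than GFP replicate 3 (0.0508 to 0.284). SDCCAG8, a centrosomal protein mutated in nephronophthisis, stood at 5.29, 5.52 and 5.48 FPKM in GFP-812 and 7.57, 6.20 and 6.74 in GFP, and fell by 0.32 (SE 0.0788, adjusted p = 0.00991), a call lost in 4 alternatives, among them leaving out GFP replicate 1 (0.194). All GFP-812 libraries lay below all GFP libraries for both. The next genes by p were KIAA0586, a centriolar protein also called TALPID3 (-0.18, adjusted p = 0.0716), and EFCAB7, a part of the EVC complex in Hedgehog signalling (-0.23, adjusted p = 0.0835), neither of which passed. Without single libraries, the fallen and risen genes of this list numbered between 1 and 11 in all: leaving out GFP-812 replicate 2 gave 1 (1.21% of all genes were called), as did leaving out GFP replicate 1 (1.52%). Dropping GFP-812 replicate 3 gave 2 (1.69%), and dropping GFP replicate 3 gave 11, of which 2 rose (7.63%).

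**Figure D4:**
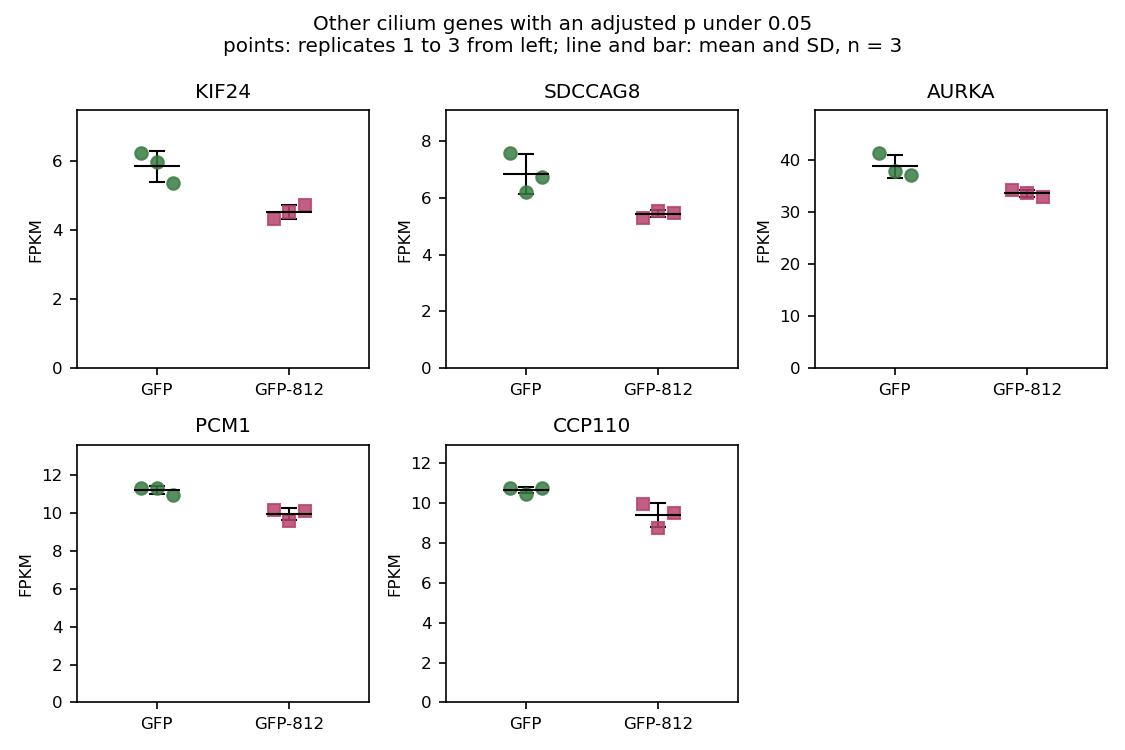
FPKM from 0 of the 5 other cilium genes that fell, by library, with the mean and SD of 3 libraries per group. Every GFP-812 library lies below every GFP library, for example 32.87 to 34.21 against 37.17 to 41.29 FPKM for AURKA.

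Markers of motile ciliated cells were checked beside these values. The 10 genes summed to 5.60, 5.12 and 4.90 FPKM in GFP-812 and 6.11, 6.63 and 6.61 in GFP, 7 were tested and 1 fell, beside 2.67% of all genes. The defining factor FOXJ1 was at most 0.15 FPKM and the axonemal dynein DNAH9 at most 0.01. TPPP3 (0.76 to 1.51 FPKM) and CFAP43 (0.88 to 1.29 FPKM) were higher than these. CFAP43 was lower in every GFP-812 library but did not pass (-0.30, adjusted p = 0.292 by edgeR), while the groups of TPPP3 overlapped (0.16). The gene that fell was RSPH4A, a radial spoke protein, at 2.42, 1.76 and 1.82 FPKM against 3.05, 3.52 and 2.72 (-0.63, SE 0.159, adjusted p = 0.0123 by edgeR), named after its values were seen. RSPH4A alone made up most of the gap between the sums: its means were 2.0 FPKM in GFP-812 and 3.097 in GFP, beside 5.207 and 6.45 for the 10 genes. Of the 7 tested genes of this list, 3 were above 0 and 4 below. The part of this list and of the kidney and 293T markers in the results above was not tested.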

How the data were processed

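Per the labels' protocols, poly(A) RNA from 293T cells was fragmented, copied from random primers and sequenced in 6 libraries. Per the submitters' processing notes, the build was hg38 and the tools included HISAT2 2.2.1, HTSeq 0.6.1 and cutadapt 1.9.1. For the counting, strand setting and annotation release were not given in the sources used here. The authors deposited raw counts and FPKM per gene. Each FPKM equalled the count divided by exonic size and library total for 100% of values within 0.0051.

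Counts were tested with edgeR 4.0.16 in R 4.3.3 (filterByExpr, TMM scaling, quasi-likelihood, group as the single term), 2-sided, with Benjamini-Hochberg adjustment over 16834 genes and a threshold of 0.05. Standard errors and 95% intervals come from the F statistic, and the script was tested on simulated data. Precision follows depth and 3 libraries a group. The text names every called member, the 2 smallest p in each role, the 3 highest and 3 lowest levels, and among other cilium genes those called and the next 2 by p. Other members are given by fold change. The members and lists were chosen with earlier results of these data known. There were 21 alternatives (among them limma 3.58.1 and DESeq2 1.42.0), of which robust edgeR, exonic size with GC correction, and protein-coding genes alone were chosen after seeing the data. Exon overlap was read from GENCODE 29. In it 14 members share exonic bases with another counted gene, and 7 share over 5% of them. These 7 are BBS1, KIF7, IFT20, IFT80, IFT74, B9D1 and TCTN1.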

Additional observations from a re-analysis of the deposited data

How the results depend on the processing

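The members' median log2 fold change moved by less than the replicate spread in all 21 alternatives, from -0.0158 to 0.0320, while that of all genes went from -0.0115 to 0.0221. Members called numbered 0 with limma on log2(FPKM + 1) and on log2(FPKM + 0.1), which called 3 and 2 genes in all and had 4 members and 10 other cilium genes at an unadjusted p under 0.05, and 0 to 2 when 1 library was left out. Other cilium genes called numbered 3 with upper-quartile scaling, 0 with limma at either pseudocount, and 1 to 11 when 1 library was left out. CCP110 and PCM1 each lost their call in 9 alternatives, AURKA and AHI1 in 5, SDCCAG8 in 4 and KIF24 in 2. With a replicate block, 1 member and 6 other cilium genes were called, KIAA0586 being added (adjusted p = 0.0459 by edgeR). Replicate numbers did not pair the libraries (correlations of deviations 0.0318, -0.0102 and 0.00614), and not every library correlated best with its own number.

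Signs were followed gene by gene only for the genes named by rule, and reversed in some near 0. Unnamed members could reverse too: 9 MKS genes were above 0 in the main fit and 7 with total-count scaling. BBS12 was at -0.0096 with total-count scaling, -0.0020 without the filter, -0.0002 in DESeq2, -0.0113 and -0.0162 in limma, -0.0230 with size correction and -0.0007 with size and GC correction. B9D2 was at -0.0038, -0.0388 and -0.0553 with total-count scaling, size correction, and size and GC correction. IFT52 was at 0.0012 with upper-quartile scaling. Leaving out 1 library at a time gave ranges that cross 0: BBS12 from -0.1183 to 0.1184, B9D2 from -0.1499 to 0.1558, KIF3B from -0.0118 to 0.0600, NPHP4 from -0.0940 to 0.0294, IFT52 from -0.0358 to 0.0107, IFT172 from -0.0159 to 0.1636 and IFT57 from -0.0256 to 0.0901. The cause was not tested. Low counts limit B9D2 (SE 0.38) and BBS1 (SE 0.247) most, followed by BBS5 (0.166), BBS12 (0.148) and TMEM216 (0.143).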
